A study of Mus musculus with 15 samples.

Results

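The transcripts described here come from 10 genes of the red cell lineage, chosen by symbol: the transcription factors Gata1 and Klf1, the heme enzyme Alas2, the membrane and skeleton proteins Slc4a1, Epb42 and Sptb, the blood group proteins Rhag, Rhd and Ermap, and the carbonic anhydrase Car1. Each of the 10 had 1 probe set that names that gene alone, among 19938 genes measured on Affymetrix Mouse Gene 1.0 ST arrays. The arrays carry RNA of whole tarsal joints from male DBA/1JBom mice, with skin, fur and visible muscle removed but other soft tissue and bone kept, so the marrow of the tarsal bones was part of the sample. The cuts ran through the metatarsal bones and through the tibia and fibula, so the ends of these bones, with any marrow in them, were included too. Arthritis had been induced with chicken collagen type II in complete Freund's adjuvant on day 1 and a boost in incomplete adjuvant on day 21, a model in which swelling of a joint is scored by eye.

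The groups are joints at a clinical score of 3 that had been arthritic for 0 to 3 days, for 1 to 2 weeks or for 3 to 4 weeks, called the first, the second and the third phase, joints in decline, whose score had gone down by at least 1 after at least 2 weeks at score 3 (3 weeks by the series record), and joints of non-induced control mice. The methods also describe control mice given adjuvant alone, and whether these controls had received adjuvant is not settled by the sources. Each joint is from 1 mouse and 1 array. The array of animal 57 (day 0 to 3) is labelled as failing quality control and was set aside, which left 14 arrays: 2 of day 0 to 3 (animals 16 and 18) and 3 of each other group. Over genes, the SD of log2 values was 1.22 on control 2 and 1.28 on the declining joint of animal 10, against 1.41 to 1.65 on the other 12 arrays, and 1.08 on animal 57.

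Red cells are made in the bone marrow from progenitors that pass through proerythroblast and erythroblast stages, around a central macrophage that takes up the expelled nuclei. GATA1 and KLF1 are the transcription factors that switch on most genes of this programme, among them those for heme synthesis, globin, the anion exchanger and the spectrin skeleton. Erythropoietin and iron supply set its pace, and in mice the spleen can take over part of the output when inflammation holds back the marrow. Most cells that make these transcripts lie in the marrow, and a joint sample can hold more or less of it. In bulk tissue, fewer erythroid cells and less RNA per cell cannot be told apart.

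The sequences before the start sites of 4 of the genes are shown because they carry the letters that these factors read: those of Klf1 and Alas2, whose values followed the other members across arrays, of Gata1, and of Sptb, the 1 gene that passed the test. Promoter sequences (RefSeq, GRCm38.p6) were at hand for 8 of the 10 genes, all but Slc4a1 and Car1. The 250 bases that end just before the annotated start were searched on both strands for GATA words (GATAA after an A or a T, with G also allowed as the last base) and for the CACCC-type word CCNCNCCC, where N is any base. The 2 searches share no letters, but CACCC words can overlap each other. Matches are in capitals. Klf1 lies at chr8:84901732-84901981 (plus strand), Alas2 at chrX:150547167-150547416 (plus strand), Gata1 at chrX:7967911-7968160 (minus strand) and Sptb at chr12:76710548-76710797 (minus strand). The Gata1 start in this table lies inside the gene's full span, which runs to 7976663.
Klf1: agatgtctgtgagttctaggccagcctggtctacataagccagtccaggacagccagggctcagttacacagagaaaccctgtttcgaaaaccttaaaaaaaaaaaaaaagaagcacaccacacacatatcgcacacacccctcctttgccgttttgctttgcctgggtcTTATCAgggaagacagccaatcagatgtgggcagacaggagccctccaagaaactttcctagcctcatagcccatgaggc
Alas2: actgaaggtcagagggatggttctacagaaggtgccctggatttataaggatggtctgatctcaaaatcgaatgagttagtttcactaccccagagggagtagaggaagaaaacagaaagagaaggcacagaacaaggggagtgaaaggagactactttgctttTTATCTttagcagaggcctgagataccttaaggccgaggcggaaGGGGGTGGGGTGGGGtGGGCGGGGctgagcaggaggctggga
Gata1: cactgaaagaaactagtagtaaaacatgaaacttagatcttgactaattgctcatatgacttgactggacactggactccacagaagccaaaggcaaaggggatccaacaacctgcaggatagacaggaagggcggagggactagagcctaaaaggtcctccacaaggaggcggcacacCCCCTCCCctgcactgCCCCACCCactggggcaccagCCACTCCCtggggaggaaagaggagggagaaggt
Sptb: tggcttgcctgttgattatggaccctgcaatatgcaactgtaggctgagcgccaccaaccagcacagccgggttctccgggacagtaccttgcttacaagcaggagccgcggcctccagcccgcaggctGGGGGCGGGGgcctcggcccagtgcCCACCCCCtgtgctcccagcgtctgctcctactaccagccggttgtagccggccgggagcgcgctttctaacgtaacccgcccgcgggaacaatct

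A GATA word was present before 6 of the 8 genes (Alas2, Klf1, Rhag, Rhd, Ermap and Epb42), and in 27.1% of 27025 mouse promoters of the same length. Counted back from the start, its first base stood at -86 in Alas2, -80 in Klf1, -67 in Ermap, -43 in Rhd, -31 in Rhag and -226 in Epb42. The CACCC-type word was present before 3 of the 8 (Alas2, Gata1 and Sptb), against 45.6% of all promoters. Gata1 and Sptb held no GATA word in this window, which says only that these letters are not in it. A match is a description of letters, not of a bound factor, and the arrays bear on none of them directly.

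Of the transcription factors, Gata1, which is needed for erythroblasts and megakaryocytes alike, had log2 values of 7.17, 7.11 and 7.13 in the controls. It stood at 6.76 and 6.87 in the first phase, at 6.68, 6.73 and 6.86 in the second, at 7.20, 7.17 and 6.63 in the third, and at 7.26, 7.25 and 7.18 in decline. All 5 joints of the first 2 weeks lay below every control, all 3 declining joints lay above every control by a narrow margin, and of the third phase only animal 60 was low. The difference from control was -0.32 (SE 0.17, limma adjusted p = 0.259) in the first phase and -0.38 (SE 0.16, adjusted p = 0.126) in the second, neither past the threshold of 0.05.

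Klf1, the factor that turns on adult globin and membrane genes in erythroblasts, had control values of 6.60, 6.75 and 7.67. At day 0 to 3 it was at 6.52 and 5.97, and in week 1 to 2 at 6.36, 6.07 and 6.28, all below the lowest control. Week 3 to 4 gave 6.66, 6.97 and 6.5, and decline 7.63, 7.01 and 6.97, both overlapping the controls. Both of the first phases were at -0.77 against control, with an adjusted p of 0.132 (limma, SE 0.30) at day 0 to 3 and 0.083 (SE 0.27) in the second phase. Control 3 was the highest of all 14 arrays for Klf1, and without it the changes were -0.43 and -0.44.

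Alas2 makes the erythroid form of the first enzyme of heme synthesis, on the X chromosome. Its values were 6.64, 6.75 and 7.05 in controls, 6.31 and 6.36 in the first phase, 6.64, 6.35 and 6.64 in the second, 6.64, 7.02 and 6.42 in the third, and 7.48, 7.21 and 6.56 in decline. Day 0 to 3 held the lowest value of the 14 arrays, and the declining joints of animals 15 and 21 the 2 highest. The lowest control and the highest week 1 to 2 joint both round to 6.64, with the control higher by less than that rounding. The mean of 6.34 ± 0.03 (SD, n = 2) at day 0 to 3 against 6.82 ± 0.21 (SD, n = 3) in controls gave a change of -0.48 (95% interval -1.02 to 0.07, limma adjusted p = 0.245).

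Slc4a1 (band 3) is the anion exchanger of the red cell membrane and the anchor of its skeleton. Control joints were at 7.35, 7.26 and 7.64, day 0 to 3 joints at 6.95 and 6.64, week 1 to 2 joints at 7.13, 6.93 and 6.94, week 3 to 4 joints at 7.37, 7.69 and 7.17, and declining joints at 7.59, 7.60 and 7.08. No joint of the first 2 weeks reached the lowest control or the lowest joint of week 3 to 4. Against control the change was -0.62 (SE 0.21, 1.53-fold lower, limma adjusted p = 0.088) in the first phase and -0.41 (SE 0.19, adjusted p = 0.159) in the second. From week 1 to 2 to week 3 to 4 it was 0.41 higher (95% interval 0.01 to 0.82), with an adjusted p of 0.991 by limma.

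Sptb, the erythroid beta spectrin of the membrane skeleton, was the 1 member that passed the test. It had log2 values of 6.79, 6.78 and 6.88 in controls, 6.26 and 6.20 in the first phase, 6.36, 6.38 and 6.24 in the second, 6.5, 6.45 and 6.35 in the third, and 6.44, 6.46 and 6.62 in decline. Every arthritic joint of all 4 phases that passed quality control lay below every control, and the group means ran upward from day 0 to 3 to decline with neighbouring phases overlapping. Sptb fell 1.5-fold at day 0 to 3 (log2 change -0.58, SE 0.14, limma adjusted p = 0.023) and 1.40-fold in week 1 to 2 (-0.49, SE 0.12, adjusted p = 0.027), and was at -0.38 (adjusted p = 0.105) in week 3 to 4 and -0.31 (adjusted p = 0.358) in decline. Over all 4 phases it was 1.36-fold lower (-0.44, SE 0.10, adjusted p = 0.015).

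These calls were narrow. With control 3 left out Sptb stood at -0.55 (limma adjusted p = 0.054) in the first phase and -0.46 (adjusted p = 0.069) in the second, and with animal 57 added, at 6.80 on that array, it stood at -0.39 (adjusted p = 0.410) and -0.49 (adjusted p = 0.151). Spectrin beta is also made in skeletal muscle, and muscle genes moved the same way: the mean log2 value of 12 muscle genes was 11.32 to 11.92 in controls, 9.45 to 9.56 in the first phase, 10.49 to 11.29 in the second, 10.61 to 10.93 in the third and 10.56 to 11.49 in decline. The part of muscle in the Sptb result was not tested.

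Epb42 (protein 4.2), which links band 3 to the skeleton, did not follow the anion exchanger. Its values were 5.30, 5.15 and 5.73 in controls, 5.17 and 4.98 in the first phase, 5.33, 5.25 and 5.42 in the second, 5.30, 5.50 and 5.10 in the third, and 5.63, 4.91 and 5.68 in decline. Each phase overlapped the controls, and the declining joints alone spanned from the lowest of the 14 arrays to near the highest. The change at day 0 to 3 was -0.32 (95% interval -0.83 to 0.19), and that of week 1 to 2 was -0.06 (95% interval -0.51 to 0.40), which turned to 0.17 after a second quantile normalisation. All Epb42 values, 4.91 to 5.73, lay below the median over genes of each array (6.25 to 6.4). They may be background, which limits what the difference from the anion exchanger means.

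Rhag, the ammonium channel around which the Rh complex assembles, was at 4.63, 4.95 and 5.26 in controls. The values were 4.41 and 4.5 in the first phase, 4.49, 4.27 and 4.5 in the second and 4.5, 4.60 and 4.35 in the third, so that each of these 8 joints lay below every control. The declining joints parted widely, at 4.55, 5.31 and 4.15, and held both the highest and the lowest value of the 14. Changes against control were -0.49 (SE 0.27), -0.53 (SE 0.24) and -0.46 (SE 0.24) in the first 3 phases, with limma adjusted p values of 0.267, 0.167 and 0.257. All Rhag values, 4.15 to 5.31, lay below the median over genes of each array (6.25 to 6.4). They may be background, which limits what its separation from the controls means.

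Rhd, the Rh antigen carried in the same complex, went the other way in its means. Controls were at 6.51, 6.03 and 6.46, day 0 to 3 at 6.51 and 6.45, week 1 to 2 at 6.30, 6.40 and 6.69, week 3 to 4 at 6.81, 6.80 and 6.27, and decline at 7.21, 7.08 and 5.98. The control mean of 6.33 ± 0.27 (SD, n = 3) was the lowest of the 5 groups and the decline mean of 6.76 ± 0.68 (SD, n = 3) the highest, but every phase overlapped the controls and the change in decline was 0.42 (95% interval -0.18 to 1.03, limma adjusted p = 0.569). Ermap, which carries the Scianna blood group, lay between 6.0 and 6.80 on the 14 arrays with its lowest value in decline (6.42, 6.0 and 6.70) and its highest in the controls (6.33, 6.80 and 6.35). It was at 6.40 and 6.34 in the first phase, at 6.53, 6.28 and 6.40 in the second and at 6.63, 6.49 and 6.12 in the third, and its group means differed from control by -0.08 to -0.12, with 95% intervals that spanned 0 in all 4 phases.

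Car1, the carbonic anhydrase of early erythroid cells, varied most of the 10: its SD over the 14 arrays was 0.70, above that of 95.7% of all genes. Control values were 7.71, 7.85 and 9.41, day 0 to 3 values 6.83 and 7.31, week 1 to 2 values 7.88, 7.94 and 7.37, week 3 to 4 values 8.68, 7.88 and 7.88, and decline values 8.63, 8.93 and 7.44. Both day 0 to 3 joints lay below all other arrays, while 1 control stood well above the rest. The day 0 to 3 difference of -1.25 (2.38-fold lower, SE 0.50) was the largest of any member and phase and did not pass after adjustment (limma adjusted p = 0.132). It was -0.71 without control 3, and in week 1 to 2 the change of -0.60 went to -0.06 without that joint.

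**Figure D1:**
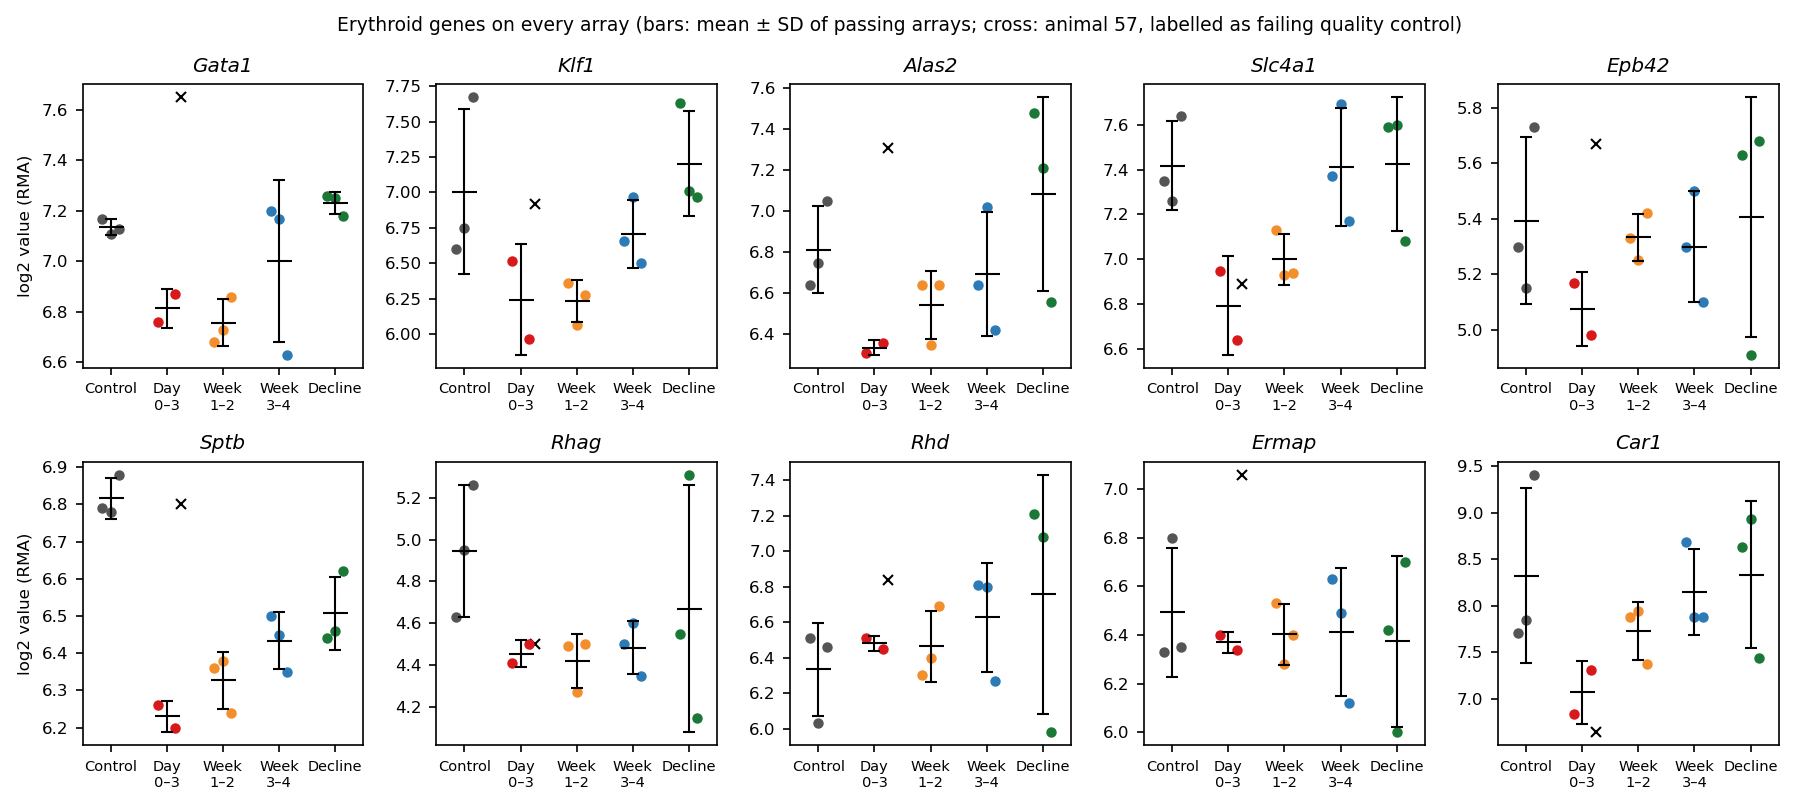
Log2 values of the 10 genes on every array by group, with the mean and SD of the arrays that passed quality control as bars and animal 57 as a cross (each panel has its own axis range). The 5 passing joints of the first 2 weeks lie below every control for Gata1, Klf1, Slc4a1, Sptb and Rhag, and for Alas2 by less than the rounding of 6.64, while every phase of Epb42, Ermap and Rhd overlaps the controls. Of those first 6 genes, animal 57 lies above every control for Gata1 and Alas2, within the controls for Klf1 and Sptb, and below them for Slc4a1 and Rhag.

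By limma, 1 of the 10 genes passed in the first phase, 1 in the second, 0 in the third, 0 in decline and 1 over all phases, where 7.82%, 10.1%, 1.55%, 0% and 12.6% of all 19938 genes were called. At an unadjusted p under 0.05 there were 4, 5, 1, 1 and 2 of the 10, against 26.1%, 29.9%, 23.9%, 12% and 32.2% of all genes, and the same model without moderation gave the same counts of adjusted calls, 1, 1, 0, 0 and 1. The share of members called was thus near that of all genes. Over the 3 phases in order and then decline, the median change of the 10 genes was -0.49, -0.40, -0.13 and 0.01, beside medians over all genes of -0.12, -0.13, -0.09 and -0.05. Without control 3 the 4 medians of the 10 genes were -0.35, -0.23, 0.01 and 0.15, with 5 of the 10 above 0 in week 3 to 4 in place of 1. That of week 3 to 4 was also 0.01 without animal 60, and -0.21 without animal 54 or animal 29, and that of decline ran from -0.08 (without animal 15) to 0.15 (without animal 10 or control 3).

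Every phase array lay below every control for 7 of the 10 genes in the first phase (Alas2, Slc4a1, Sptb, Klf1, Car1, Gata1 and Rhag), where 27.8% of all genes did so, and for 6 of 10 in the second (those without Car1), where 23.3% of all genes did. In week 3 to 4 there were 2 (Sptb and Rhag), against 15.4%, and in decline 1 (Sptb), against 6.2%. These 4 comparisons share their 3 control joints, so a control that is high or low enters all of them.

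**Figure D2:**
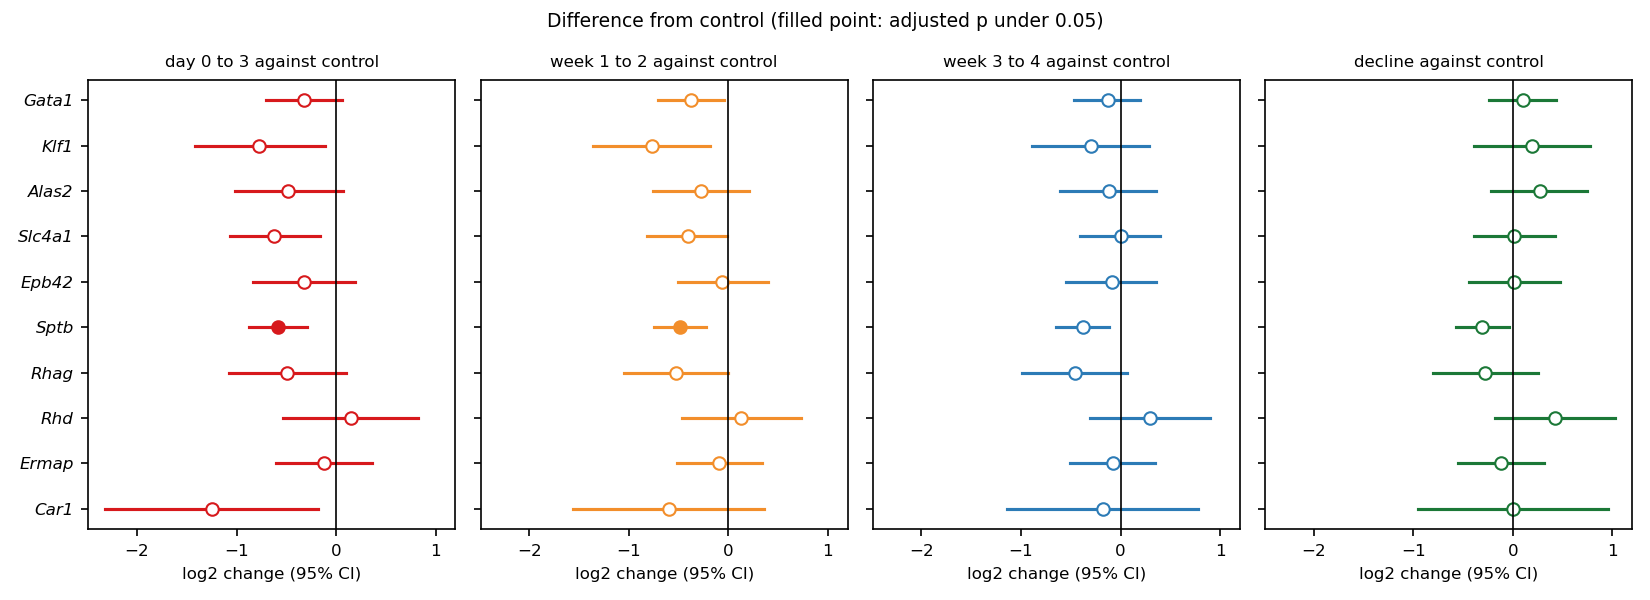
Log2 change of each gene against control with its 95% interval, for the 4 phases, filled where the limma adjusted p was under 0.05. Only Sptb is filled, at -0.58 and -0.49 in the first 2 phases, and the points of most other genes move from below 0 at day 0 to 3 to around 0 in decline.

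Between successive phases limma called 0 of the 10 genes from the first to the second, 0 from there to the third and 0 from the third to decline, where 0.00502%, 0.00502% and 0% of all genes were called. At an unadjusted p under 0.05 there were 0, 1 and 0 of the 10, against 1.79%, 4.98% and 6.13% of all genes, and the model without moderation made no adjusted call either. The means of 9 of the 10 genes were higher in week 3 to 4 than in week 1 to 2, and again 9 of 10 were higher in decline than in week 3 to 4, with median steps of 0.16 and 0.16 against 0.02 and 0.02 over all genes. Single joints moved both steps: the first was 0.09 without animal 29 and 0.31 without animal 60, and the second was 0.04 (7 of 10 higher) without animal 60, 0.07 (6 of 10) without animal 15, 0.12 (6 of 10) without animal 21 and 0.35 (8 of 10) without animal 10. The largest of these steps were in Klf1, at 0.47 (95% interval -0.12 to 1.06) and 0.49 (95% interval -0.09 to 1.08).

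Arrays of 1 group differed in how the 10 genes stood together. Counted against each gene's own median over the 14 arrays, 2 and 0 of the 10 genes lay above it in the first phase, and 2, 1 and 3 in the second. In week 3 to 4 the joints of animals 54 and 29 had 8 and 9 above the median and that of animal 60 had 1, as low as the early joints. In decline it was 9 and 8 for animals 15 and 21 and 5 for animal 10, and in controls 6, 6 and 8. The mean of the 10 log2 values ranged accordingly from 6.16 (animal 18, day 0 to 3) to 6.96 (control 3), with 6.28 on animal 60 and 6.43 on animal 10.

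**Figure D3:**
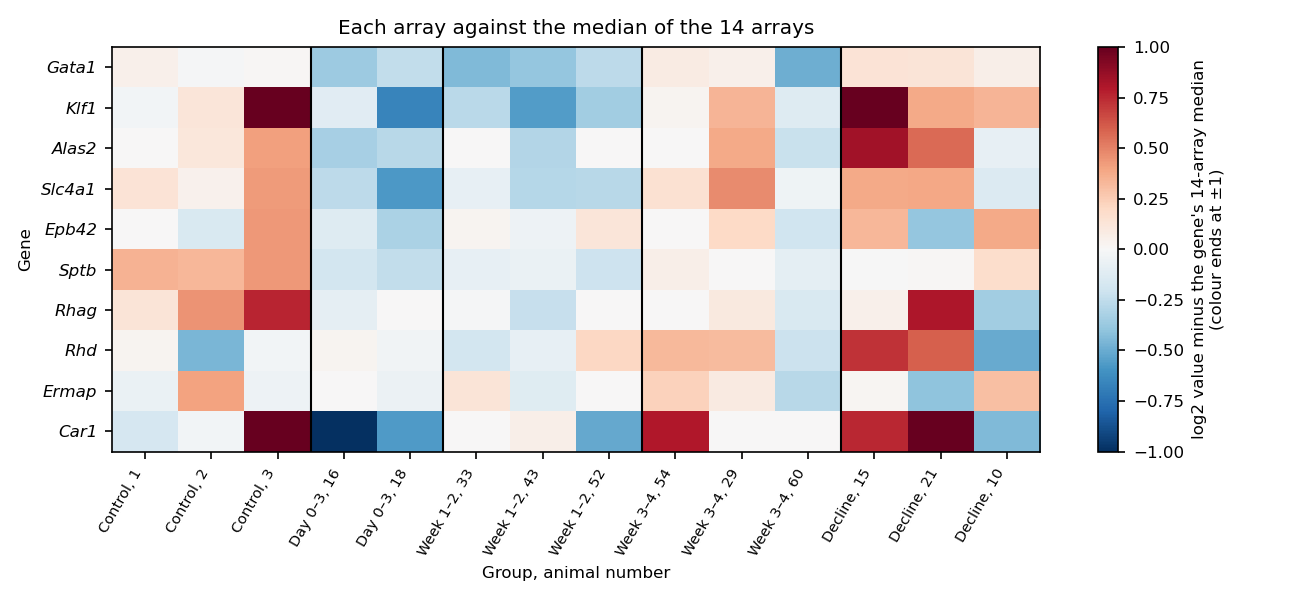
Each of the 14 arrays (columns, by group and animal number) against each gene's own 14-array median, on the log2 scale, with the colour scale ending at 1 above and below. The columns of the first and the second phase and of animal 60 are mostly below the median. Those of control 3, of animals 54 and 29 (week 3 to 4) and of animals 15 and 21 (decline) are above it for 8 or 9 of the 10 genes.

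Across the 14 arrays, which share tissue handling, normalisation and group, the members did not form 1 block. Set against the mean of the other 9, Slc4a1 (Pearson r = 0.89), Alas2 (0.88), Klf1 (0.86), Car1 (0.75) and Gata1 (0.75) followed it most closely, Rhag (0.60) and Sptb (0.56) less, and Rhd (0.40), Epb42 (0.39) and Ermap (-0.07) least. With each group's mean subtracted, r stayed at 0.84 for Alas2, 0.82 for Slc4a1 and 0.73 for Klf1 and was 0.04 for Sptb. On this scale Rhd (0.62) came before Car1 (0.58), Rhag (0.54) and Gata1 (0.46), with Epb42 at 0.20 and Ermap at -0.21. The closest pair was Alas2 and Slc4a1, at 0.84 over the arrays and 0.85 within groups. Part of the first order rested on extreme arrays. With group means kept, r was taken again without the 2 arrays where the mean of the other 9 lay farthest from its median. It was then 0.88 for Alas2 and Slc4a1, 0.79 for Gata1, 0.73 for Klf1, 0.58 for Car1 and 0.57 for Rhag. Rhd was at 0.55, Sptb at 0.5, and Epb42 and Ermap at -0.04.

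The genes outside the 10 whose values were most like their mean over the 14 arrays were Gp5 (Pearson r = 0.931), which makes platelet glycoprotein V, then Atp5k (0.916), Rdh16 (0.914), Smim26 (0.914), H2bc4 (0.909), Fmc1 (0.898), Gstm3 (0.895), Acyp2 (0.894), Cck (0.894) and 2310039H08Rik (0.893). With group means subtracted Gp5 again came first (0.945), followed by Tcea3 (0.935), Dnaaf2 (0.899), Gpr89 (0.899), Lin37 (0.897), Mrpl42 (0.893), Fbxo5 (0.893), Ccl22 (0.893), AW549877 (0.892) and Cd59b (0.885). Not all of these followed the mean when group means were kept. AW549877 was then at -0.284, Dnaaf2 at 0.309, Lin37 at 0.456 and Gpr89 at 0.52, and the others at 0.662 to 0.931. Gp5 had log2 values of 7.04, 6.84 and 8.17 in controls, 6.87 and 6.40 in the first phase, 6.86, 6.91 and 6.75 in the second, 7.33, 7.54 and 6.67 in the third, and 7.85, 7.45 and 6.76 in decline. Like the mean of the 10 genes, it was highest on control 3 and low on animal 60. The 10 genes of each ranking have the highest of 19928 correlations on its scale and are given as a description.

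The label of an erythroid set could be checked only in part, since the adult alpha and beta globins and Ahsp, which are among the usual defining genes, were not analysed here. Of 6 other globin genes, which belong to the embryo or are minor forms, 0 were called in any phase by limma, with 2 at an unadjusted p under 0.05 in each of the first 2 phases. Their largest differences were in Hbq1a (-1.05 and -1.03) and Hbb-bh1 (-0.80 and -0.80), with adjusted p values of 0.124 and 0.081 for Hbq1a and 0.146 and 0.091 for Hbb-bh1. The list's medians of -0.39 and -0.40 were close to those of the 10 genes. Its mean log2 values of 5.28 to 6.20 lay below the median over genes of each array (6.25 to 6.4), and may be background. In controls that mean was 5.78, 6.20 and 5.84, highest on control 2, the passing array with the smallest SD over genes. Hbb-bh1 was at 4.51, 5.62 and 5.55 in controls, with control 1 inside the range of the first 2 weeks (4.29 to 4.57). The likeness of the medians is therefore no check of the label.

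Among 6 other heme synthesis enzymes, Fech, which inserts iron as the last step, fell at day 0 to 3 (log2 change -0.87, SE 0.17, limma adjusted p = 0.011) and in week 1 to 2 (-0.57, SE 0.15, adjusted p = 0.036), and no other was called. Fech stood at 7.15, 6.96 and 7.31 in controls and at 6.26 and 6.29 at day 0 to 3. It is a gene of every cell with mitochondria, and the list's median was -0.01 at day 0 to 3, above that of all genes.

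Of 13 other red cell membrane genes, 1 was called lower in the first phase and 2 in the second, with medians of -0.41 and -0.39, and 0 were called higher. Tmod1, the tropomodulin that caps actin in red cells and also in muscle, fell at day 0 to 3 (-1.29, SE 0.24, limma adjusted p = 0.008). Add2, the beta adducin of the skeleton, fell in week 1 to 2 (-0.60, SE 0.15, adjusted p = 0.025), as did Icam4, the Landsteiner-Wiener antigen by which erythroblasts bind macrophages (-0.62, SE 0.18, adjusted p = 0.044).

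The 16 other erythroid transcription factors did not pass in either direction in any phase (limma, 2 and 1 at an unadjusted p under 0.05 in the first and second phase), and their medians of -0.13 and -0.06 lay near those of all genes. Tal1, a partner of GATA1, was at -0.40 (adjusted p = 0.206) and -0.37 (adjusted p = 0.169). Of 14 genes of late erythroblast maturation, Bnip3l, a mitophagy receptor that clears mitochondria from reticulocytes and is made widely, was higher in week 1 to 2 (0.94, SE 0.24, limma adjusted p = 0.027) and no gene was lower. Hemgn, a nuclear protein of blood-forming cells, was at -0.74 (adjusted p = 0.107) at day 0 to 3 and -0.51 (adjusted p = 0.178) in the second phase, without passing.

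Of 15 genes of erythropoietin response and iron uptake, 2 were called higher in the first phase and 3 in the second, and 0 lower. Tfrc, the transferrin receptor of erythroblasts and of any dividing or iron-hungry cell, had values of 6.86, 6.5 and 7.19 in controls and 8.05, 8.17 and 7.98 in week 1 to 2, a rise of 1.22 (SE 0.26, limma adjusted p = 0.014). Ferritin heavy chain (Fth1) rose by 0.95 (SE 0.24, adjusted p = 0.033) at day 0 to 3 and by 0.91 (SE 0.22, adjusted p = 0.023) in the second phase. Tmem14c, a mitochondrial porphyrin carrier, rose by 1.44 (SE 0.37, adjusted p = 0.033) at day 0 to 3, and the iron transporter Slc11a2 rose by 0.56 (SE 0.16, adjusted p = 0.043) in week 1 to 2. Ferritin light chain (Ftl1) had the widest difference of that list at day 0 to 3, 2.20 (adjusted p = 0.079), and the iron hormone hepcidin (Hamp) was at -0.99 (adjusted p = 0.185), and neither passed. Control 2 was well below the other controls for Ftl1 (8.72, 6.54 and 9.67 in the controls) and for Tmem14c (7.1, 6.04 and 7.0). Over all phases against control, 3 genes of the list were called higher and 1 lower, where 12.6% of all genes were called. The 1 lower was the erythropoietin receptor Epor (-0.39, SE 0.11, limma adjusted p = 0.039).

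Of the 12 genes of island macrophages, which other macrophages also make, 3 were called higher in the first phase and 1 in the second, with 1 lower. Adgre1, a surface marker of macrophages, rose by 1.44 (SE 0.36, limma adjusted p = 0.029), Cd68 by 1.23 (SE 0.34, adjusted p = 0.040) and Vcam1 by 1.00 (SE 0.28, adjusted p = 0.045) at day 0 to 3. In week 1 to 2 Vcam1 rose by 1.06 (adjusted p = 0.020), while Cd163, the receptor for hemoglobin bound to haptoglobin, was the 1 gene lower (-1.08, SE 0.27, adjusted p = 0.026).

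Other marrow lineages were measured beside the members as markers of how much marrow RNA a joint gave. Of 9 megakaryocyte and platelet genes 1 was called lower in each of the first 2 phases, with medians of -0.44 and -0.42 against -0.12 and -0.13 for all genes, and the gene was Nrgn (-0.74, SE 0.21, limma adjusted p = 0.044, and -0.71, SE 0.18, adjusted p = 0.030). Their mean log2 value ran from 7.39 to 7.79 in controls, 7.06 to 7.19 in the first phase, 7.08 to 7.23 in the second, 7.01 to 7.66 in the third and 7.19 to 7.78 in decline. Of 13 B cell precursor genes 2 were called lower in each of the first 2 phases, with list medians of -0.18 and -0.06 near those of all genes. They were Vpreb1, part of the surrogate light chain of pre-B cells (-2.48, SE 0.48, adjusted p = 0.009, and -2.14, SE 0.43, adjusted p = 0.010), and Vpreb3 (-0.64, SE 0.18, adjusted p = 0.041, and -0.54, SE 0.16, adjusted p = 0.044). The mean log2 value of the 13 genes ran from 6.63 to 6.92 in controls, 6.34 to 6.42 in the first phase and 6.38 to 6.57 in the second. It was 6.40 to 6.82 in the third and 6.59 to 6.77 in decline.

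Of 11 neutrophil precursor genes, made in marrow, 1 (Cebpe, a factor of granule maturation) fell in both phases (-0.77, SE 0.19, limma adjusted p = 0.026, and -0.63, SE 0.17, adjusted p = 0.033), with list medians of -0.48 and -0.12, the second near that of all genes. In week 3 to 4 these precursor genes had 0 called, 9 of 11 above control and a median of 0.23. The 10 erythroid genes then had 1 above control and a median of -0.13. In decline the precursor median was -0.04. Of 10 genes of mature neutrophils, which also enter the inflamed joint from blood, 3 were called higher at day 0 to 3 (Mmp9 at 2.07, SE 0.39, Csf3r at 1.62, SE 0.36, and Trem1 at 1.46, SE 0.41) and the median was 1.03, while in the second phase 1 was called higher and the median was 0.79. The difference between the 2 neutrophil lists was not tested. Of 10 haematopoietic progenitor genes, 1 was called, the widely made leukocyte gene Cd48 (1.63, SE 0.32, adjusted p = 0.010 at day 0 to 3), and of 7 marrow niche genes 1, Cxcl12, was higher at day 0 to 3 (0.74, SE 0.20, adjusted p = 0.042). The part of marrow amount in the values of the 10 genes was not tested.

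Tissues outside the marrow moved with the phases too. At day 0 to 3, 10 of 12 skeletal muscle genes were called lower (list median -2.0, led by Atp2a1 at -3.32, SE 0.31, limma adjusted p = 0.00053), as were 6 of 9 adipocyte genes (median -0.87), while 4 of 10 endothelial genes were higher (median 0.45) and osteoblast genes had 1 higher and 1 lower of 10. In week 1 to 2, 3 muscle genes and 5 adipocyte genes were lower and 4 osteoblast genes and 1 endothelial gene higher. Epidermis genes were not called in any phase (limma, with 0, 0, 3 and 8 of 9 at an unadjusted p under 0.05 in the 4 phases), but their mean log2 value ran from 5.62 to 5.69 in the first phase and from 5.72 to 6.36 in the second, against 6.09 to 9.49 in controls, 6.76 to 10.14 in the third and 9.86 to 10.72 in decline. Control 3, the array with the highest Klf1, Car1, Sptb, Epb42 and Gp5 values of the 14, was also the control with the highest epidermis mean. It had the highest muscle mean of the 14 arrays as well (11.92). The part of tissue makeup in these values was not tested.

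**Figure D4:**
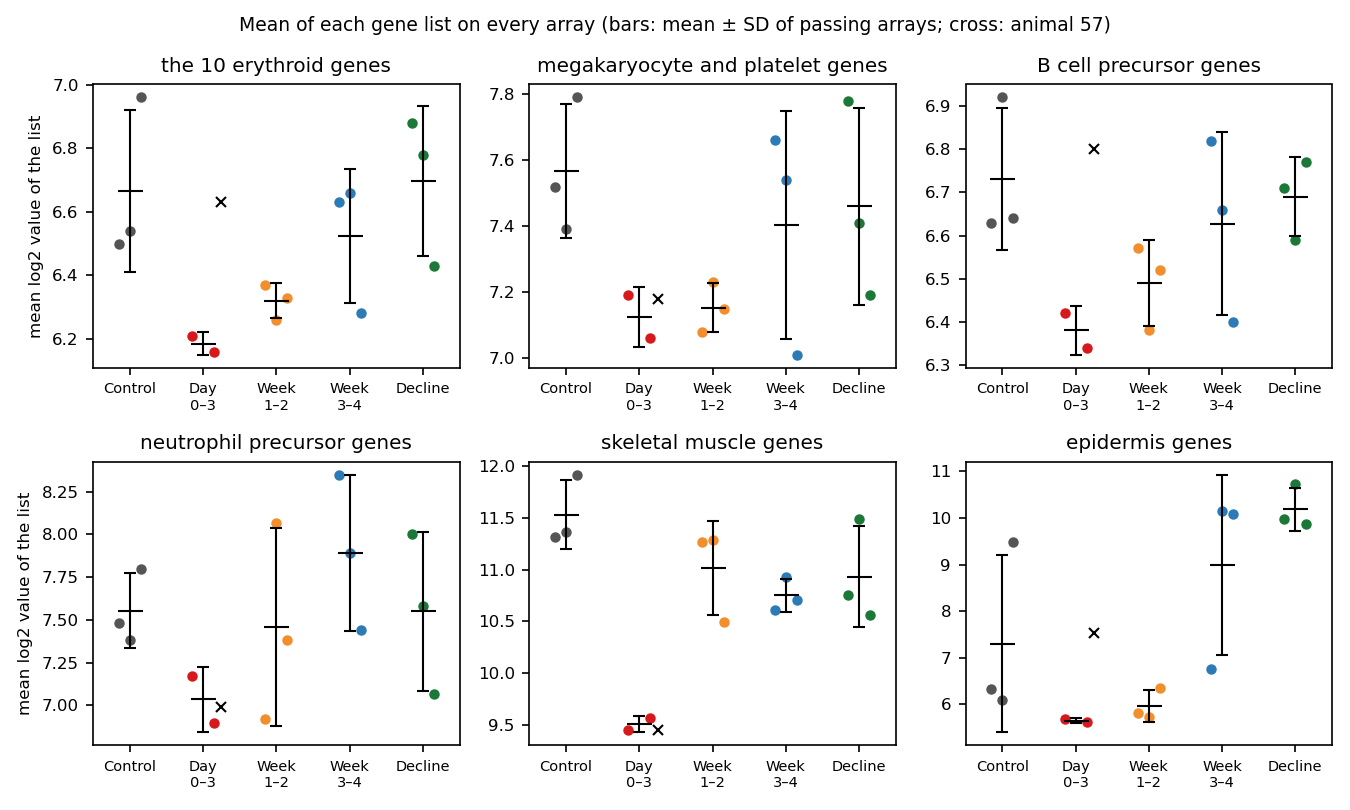
Mean log2 value of 6 gene lists on every array by group, with the mean and SD of the passing arrays as bars and animal 57 as a cross (each panel has its own axis range). In the first 2 weeks the means of the passing arrays lie below every control for the 10 erythroid genes. The same holds for the megakaryocyte and platelet, B cell precursor and skeletal muscle genes, but not for the neutrophil precursor and epidermis genes. The muscle genes are lowest at day 0 to 3, and the epidermis genes part control 3 from the other controls.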

How the data were processed

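RNA of tarsal joints had been extracted with mirVana columns (RNA integrity number of at least 8.4), amplified with the NuGEN Pico kit and hybridised to 15 one-colour arrays. The authors ran RMA (background correction, quantile normalisation and probe summary) in R 2.15, which left deposited log2 values of 1.56 to 14.26. Whether 14 or 15 arrays entered that normalisation is not given. The value table carries no detection call, so a low value cannot be told from background, and arrays have no read depth. Quantile normalisation makes every value relative to the rest of its array.

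Of 35556 probe sets, the 21789 naming 1 gene were used, with the highest mean kept for 999 genes with several, which left 19938 genes. Groups were taken from the labels, and 14 arrays were fitted in limma 3.58.1 (R 4.3.3; lmFit, eBayes, 5 group means, no covariate), with Benjamini-Hochberg adjustment over all genes and calls at 0.05. The methods name an ANOVA with false discovery rates, which was run as an alternative. Each phase and all phases were compared with control, and each phase with the one before. Each joint is 1 mouse, and precision rests on 2 or 3 arrays per group. The calculation was tested on simulated data.

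The 10 genes and 18 further gene lists were chosen with earlier results of these data known. All 10 genes are named in each comparison; of other lists, up to 4 genes with the largest absolute change, and the 10 genes most correlated with the members' mean on either scale. Fth1, Slc11a2, Trem1 and Epor were named after their values were seen, because they passed the test. Alternatives were all 15 arrays, each array left out, the ANOVA, only the groups compared, array weights, moderation with a trend and robust, 3 rescalings, 2 limits on low values, the mean of a gene's probe sets, a fold of 2 with an unadjusted p under 0.05, and, as a block, the letter code in array names. Leaving out control 2 and decline 10 together was added after the data were seen. Promoter sequences are from RefSeq (GRCm38.p6). Plots used matplotlib 3.10.9 (Python 3.11.15).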

Additional observations from a re-analysis of the deposited data

Results flagged for a closer look

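Gata1 lay on opposite sides of the control mean in different phases. The 2 passing arrays of day 0 to 3 (group difference -0.32) and all 3 of week 1 to 2 (-0.38) were below it, and all 3 of decline (0.10) above it. None of these differences passed (limma adjusted p = 0.259, 0.126 and 0.821), and the difference between these phases was not tested.

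The array of animal 57, labelled as failing quality control and outside the comparisons, held values above every control for 4 of the 10 genes: 7.31 for Alas2, 7.65 for Gata1, 7.06 for Ermap and 6.84 for Rhd. It lay below every control for Slc4a1 (6.89), Car1 (6.64) and Rhag (4.5), and within the controls for Epb42, Sptb and Klf1. Its log2 values had an SD of 1.08 over genes, the smallest of the 15 arrays.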

How the results depend on the processing

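Counts of the 10 genes called are given with the percent of all genes called under the same setting. At day 0 to 3 against control, with 1 (Sptb) in the fit reported, the count was 0 with all 15 arrays (0.818%) and with only the groups compared (2.28%), 2 after a second quantile normalisation (7.23%) and without control 2 and decline 10 (10.5%), and 3 with array weights (14.7%), which added Slc4a1 and Car1. By the fold rule it was 1 (6.5%), but the gene was Car1 and no longer Sptb. With single arrays left out it ran from 0 (without animal 16, 0.697%, animal 18, 1.05%, or control 3, 5.25%) to 2 (without decline 10, 13.1%). In week 1 to 2 it was 0 with all 15 arrays (0.532%), with only the groups compared (5.84%) and by the fold rule (5.49%), 2 with array weights (15.1%), and 0 to 2 with single arrays left out (0 without animal 33, 6.12%, animal 43, 2.09%, animal 52, 2.6%, or control 3, 6.15%, and 2 without control 1, 16.3%). Over all phases it was 0 with all 15 arrays (0.782%) and by the fold rule (3.21%), and 0 (without control 3, 6.2%) to 2 (without animal 21, 10.4%) with single arrays left out. The other 5 comparisons gave 0 under every alternative run, the letter-code block included. With animal 57 added, the genes called at day 0 to 3 went from 1559 to 163 and those of week 1 to 2 from 2005 to 106.

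Of 2074 refitted changes of single genes, 82 had another sign than the main value, 14 of them by more than 1 SE, none of a change that had passed the test. With all 15 arrays these were Ermap at day 0 to 3 (0.11) and, from day 0 to 3 to week 1 to 2, Alas2 (-0.12), Ermap (-0.20) and Sptb (-0.09). Without control 3, Car1 went to 0.36 in week 3 to 4 (range with single arrays left out -0.49 to 0.36) and to 0.04 over all phases (-0.81 to 0.04), and Klf1 to 0.03 in week 3 to 4 (-0.50 to 0.03). Gata1 in week 3 to 4 went to 0.05 without animal 60 (-0.23 to 0.05), and Rhag from week 3 to 4 to decline went to -0.13 without animal 21 (-0.13 to 0.45). Epb42 went to 0.17 in week 1 to 2 and 0.09 over all phases after a second quantile normalisation, to 0.18 and 0.09 when every array was given one median and SD, and to -0.24 in decline without control 2 and decline 10. The causes were not tested.

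Rescaling moved the median of all genes at day 0 to 3 from -0.12 to -0.05 (centred), -0.03 (second quantile) and -0.01 (one median and SD), and that of the 10 genes from -0.49 to -0.42, -0.44 and -0.41. No paired analysis was possible because replicate numbers only name the arrays and each joint is from another mouse. The 2 or 3 arrays per group set the width of every interval given here.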
